A study of Homo sapiens with 9 samples.

Results

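The genes described here encode transcription factors of the EGR (early growth response) and KLF (Krüppel-like factor) families, and were chosen by name as EGR1, EGR2, EGR3, KLF2, KLF4, KLF5, KLF6, KLF7, KLF9 and KLF10. Of these 10 genes, 9 carried a single gene symbol on the array, among 18404 genes in all. EGR2 was not analysed here. RNA came from MCF10A, an established non-tumorigenic line of human mammary epithelium, in 3 groups of 3 arrays each. The control cells are labelled parental in the sample source and empty-vector cells in the design. The other groups carried a transgene for wild-type HER2 (WT-HER2) or for its splice variant Delta-HER2, a receptor tyrosine kinase form of the gene ERBB2. The labels give no promoter for the transgenes, and whether a line was a clone or the replicates were separate cultures is not given in the sources used here. P-values therefore measure the spread between these samples, which may be technical, and an effect of line construction and one of the receptor cannot be told apart. Cells of all groups were grown with 20 ng/ml epidermal growth factor, hydrocortisone, insulin, cholera toxin and 5% horse serum. They were then kept for 16 hours in serum-free medium, with antibiotics as its one named addition.

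EGR and KLF proteins bind GC-rich DNA through zinc fingers at or near one end of the protein. EGR genes are immediate-early genes. ERK phosphorylates ELK factors that sit with serum response factor (SRF) on CArG boxes, and EGR transcription follows within minutes without new protein synthesis. KLF genes answer to a wider set of signals. In epithelia KLF4 is known for barrier formation and exit from the cell cycle, KLF5 for growth of basal cells, KLF9 for its induction by glucocorticoids and KLF10 for its induction by transforming growth factor beta (TGF-beta).

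The largest differences were in EGR1 and KLF4. With Delta-HER2, EGR1 was 2.83-fold higher than in control cells and KLF4 was 3.98-fold lower, and smaller decreases passed the test for KLF9 and KLF5. With WT-HER2, EGR3 was 1.30-fold lower and no other member passed. Between the lines, EGR1 was 4.02-fold higher and KLF4 3.63-fold lower with Delta-HER2. KLF2, KLF7 and KLF10 passed in none of the comparisons. Differences were tested with limma over all genes, and a gene was called at an adjusted p below 0.05 (Benjamini-Hochberg).

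Promoter sequences are shown for EGR1 and KLF4, the members with the largest differences, for KLF7, which carries the same SRF motif as EGR1 but was not called, and for KLF9, in which none of the motifs searched was found. Each line gives the 250 bases before an annotated transcript start in RefSeq (build GRCh38.p14), 5′ to 3′ on the strand of the gene. Capitals mark the CArG box in EGR1 and KLF7, and the EGR motif and GC boxes in KLF4. KLF9 has no capitals.
EGR1, chr5:138465229-138465478, plus strand: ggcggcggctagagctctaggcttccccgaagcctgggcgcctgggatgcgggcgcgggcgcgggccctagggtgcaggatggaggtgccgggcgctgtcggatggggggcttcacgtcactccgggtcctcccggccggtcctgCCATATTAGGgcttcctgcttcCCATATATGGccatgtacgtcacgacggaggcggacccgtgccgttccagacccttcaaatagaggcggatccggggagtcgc
KLF7, chr2:207167247-207167496, minus strand: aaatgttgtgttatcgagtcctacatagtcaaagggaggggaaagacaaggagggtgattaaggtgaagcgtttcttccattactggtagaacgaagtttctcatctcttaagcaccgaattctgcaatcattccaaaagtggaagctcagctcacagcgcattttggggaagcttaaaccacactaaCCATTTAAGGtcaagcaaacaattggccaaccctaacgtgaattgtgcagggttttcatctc
KLF4, chr9:107489770-107490019, minus strand: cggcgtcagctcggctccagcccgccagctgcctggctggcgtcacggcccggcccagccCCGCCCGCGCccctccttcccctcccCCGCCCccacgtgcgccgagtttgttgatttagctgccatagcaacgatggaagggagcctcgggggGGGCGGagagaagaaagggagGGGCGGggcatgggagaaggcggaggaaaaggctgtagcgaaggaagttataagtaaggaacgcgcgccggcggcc
KLF9, chr9:70414658-70414907, minus strand: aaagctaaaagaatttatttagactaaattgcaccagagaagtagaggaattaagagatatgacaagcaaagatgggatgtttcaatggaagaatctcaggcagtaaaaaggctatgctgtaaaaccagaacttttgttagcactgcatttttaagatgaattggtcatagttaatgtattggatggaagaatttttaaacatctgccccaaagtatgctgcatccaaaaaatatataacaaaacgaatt

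The RefSeq promoter table held windows for 7 of the 9 members, 11 windows in all, since KLF5 and KLF7 have several starts. EGR3 and KLF10 are named only. Both strands were searched for the CArG box, for the ETS site in the form CCGGAA, for the cyclic AMP response element TGACGTCA and for the AP-1 site TGANTCA. They were also searched for the EGR site GCGNGGGCG, the GC box GGGCGG, the CACCC box (CACCC) and the FOXO site GTAAACA. The EGR site and the GC box can share letters, as they do in KLF4, KLF6 and KLF2. A match describes the letters of the window and shows no binding.

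EGR1 held a pair of CArG boxes, at −105 to −96 and −83 to −74 from the start, where 1.16% of 35116 windows of this length held at least 1. The window of KLF7 shown above held 1, at −62 to −53. No other member window held one, nor did any of the 14 windows of 12 other immediate-early genes. These genes were ATF3, BTG2, CCN2, DUSP1, FOS, FOSB, IER2, JUN, JUNB, NR4A1, NR4A3 and ZFP36. IER3, MYC and TRIB1, which are described below, were not among them. Bases further upstream were not searched, so whether any of these genes holds a CArG box there was not tested. The EGR site was found in EGR1, KLF2, KLF4 and KLF6, and in 8.41% of all windows. GC boxes were found in windows of KLF2, KLF4, KLF5, KLF6 and KLF7 (42.6% of all windows) and CACCC boxes in windows of EGR1, KLF5 and KLF7 (54.7%). None of the 11 windows held the ETS form CCGGAA (14.5% of all windows), the cyclic AMP element (1.65%), the AP-1 site (6.57%) or the FOXO site (2.98%). The shorter ETS core GGAA was not searched. It stands on the other strand between the CArG boxes of EGR1. Forms of the cyclic AMP element other than TGACGTCA were not searched either. The EGR1 window holds TCACGTCA, which differs from it by 1 letter. G and C made up 80.0% of the KLF2 window, 68.4% of that of EGR1 and 69.2% of that of KLF4. They made up 32.4% of the KLF9 window, and 96.7% of all windows had a higher share.

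**Figure D1:**
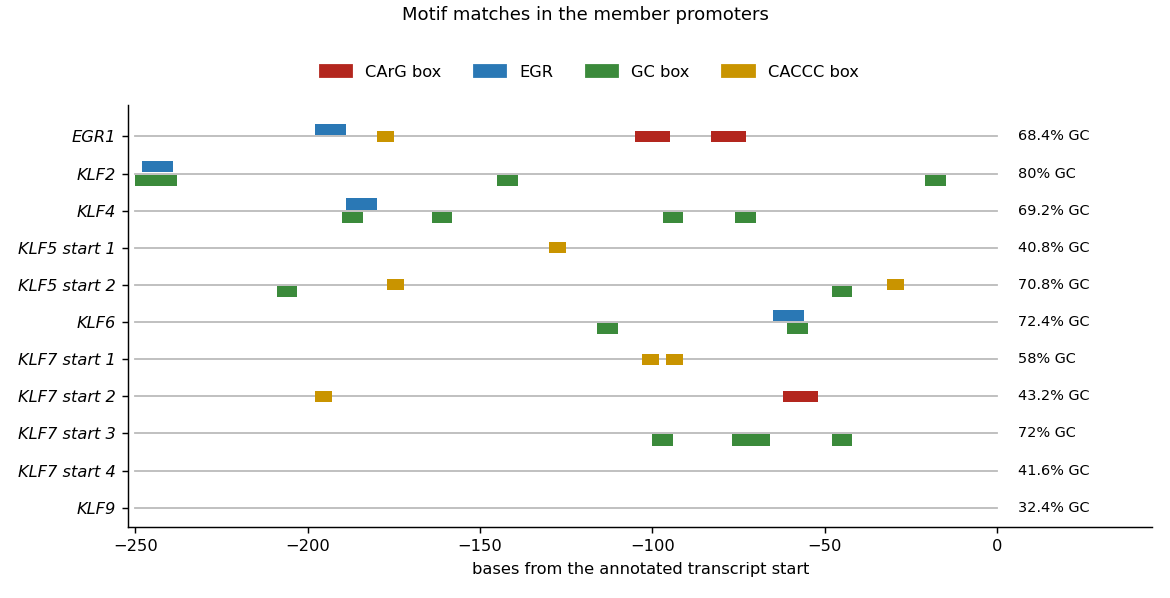
Matches to the CArG box (red), EGR site (blue), GC box (green) and CACCC box (yellow) in the 250 bases before each annotated start of the 7 members with a window, by distance from the start in bases; starts of KLF5 and KLF7 are numbered in the order of the RefSeq table, and the share of G and C stands at the right. The CArG box matches in the EGR1 window lie between −105 and −74, and KLF9 has no match.

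Values are on the log2 scale as the authors deposited them, so a difference of 1 is a 2-fold change. Array medians lay between 4.04 and 4.18. Background was gauged by 337 olfactory receptor genes, which gave an upper bound (their 0.95 quantile) of 3.18, and all 9 members lay above it in every group. The 7 mammary epithelial markers measured were above the bound in all groups. Of markers of other cell types, PTPRC, CD3E, LUM and VWF lay under it in all groups. By contrast DCN, a fibroblast marker, had means of 7.15 (control), 7.73 (WT-HER2) and 7.07 (Delta-HER2). CD14, an immune marker, had means of 8.04, 8.28 and 7.96 in the same order. The part of DCN and CD14 in the results was not tested. The summed log2 values of the epithelial markers ran from 68.75 to 69.20 in control, from 68.17 to 68.81 in WT-HER2 and from 68.04 to 68.78 in Delta-HER2 arrays. Single markers changed within these sums. KRT14, a basal keratin gene, fell by 0.68 with WT-HER2 (limma adjusted p = 0.00234), where DCN rose by 0.58 (adjusted p = 0.0179), and COL1A1, a collagen gene, fell by 0.44 with Delta-HER2 (adjusted p = 0.0134). Above the bound lay 4 of 5 fibroblast markers, 1 of 3 immune markers and 0 of 4 endothelial markers, except that PECAM1 was at 3.90 with Delta-HER2. In such bulk samples, fewer cells of a type and less RNA per cell cannot be told apart. Control replicate 1 and WT-HER2 replicate 3 stood apart from the other arrays of their groups in the same direction (r = 0.64 between their deviations over the genes, which do not count as independent). Delta-HER2 replicate 2 shared this direction less strongly (r = 0.39 with each). It was kept where the pair was left out.

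EGR1 (probe 8108370, Entrez gene 1958) is the family member that growth factor signals induce in most cell types. Its log2 values were 7.26, 7.24 and 7.32 in control cells, 6.78, 7.07 and 6.45 with WT-HER2, and 8.71, 8.74 and 8.87 with Delta-HER2. The 3 groups did not overlap, with Delta-HER2 highest and WT-HER2 lowest. EGR1 rose by 1.50 log2 with Delta-HER2 against control (SE 0.14, limma adjusted p = 3.41e-05) and was 2.01 higher than with WT-HER2 (adjusted p = 7.90e-06). With WT-HER2 the difference from control was −0.51 (SE 0.14, 95% interval −0.81 to −0.20). That difference did not pass over all genes (adjusted p = 0.138). It passed without WT-HER2 replicate 2 (−0.66, adjusted p = 0.0425), and was −0.35 (adjusted p = 0.198) without the pair of arrays that stood apart. WT-HER2 was the group with the widest spread for EGR1, with an SD of 0.31 against 0.04 in control and 0.09 in Delta-HER2 cells (n = 3 each).

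EGR3 (probe 8149720), which is itself induced by EGR1 and by growth factor signals in several cell types, followed another pattern. Its values were 4.44, 4.51 and 4.40 in control cells, 4.19, 3.96 and 4.06 with WT-HER2, and 4.40, 4.46 and 4.48 with Delta-HER2. The WT-HER2 arrays lay below all others, while control and Delta-HER2 arrays overlapped. EGR3 fell by 0.38 log2 with WT-HER2 against control (SE 0.08, adjusted p = 0.0415). It was 0.37 higher with Delta-HER2 than with WT-HER2 (adjusted p = 0.00548). The WT-HER2 call was lost when any 1 of the 9 arrays was left out (adjusted p from 0.0504 to 0.182), although the difference kept its sign, and without both arrays that stood apart it was −0.38 (adjusted p = 0.109). Of the 9 members, EGR3 was the 1 called with WT-HER2, and 1.68% of all genes were called in that comparison (0.777% higher and 0.902% lower).

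KLF4 (probe 8163002, Entrez gene 9314) showed the largest decrease of the members. Its values were 6.18, 6.40 and 6.30 in control cells, 6.01, 6.30 and 6.16 with WT-HER2, and 4.30, 4.21 and 4.39 with Delta-HER2. Control and WT-HER2 arrays overlapped, and all Delta-HER2 arrays lay below both. KLF4 fell by 1.99 log2 with Delta-HER2 against control (SE 0.10, adjusted p = 8.30e-07) and the difference from WT-HER2 was −1.86 (adjusted p = 1.78e-06). With WT-HER2 the difference was −0.13 (95% interval −0.35 to 0.08, adjusted p = 0.675), and it ran from −0.21 to −0.06 with 1 array left out, the extremes being without WT-HER2 replicate 2 and without WT-HER2 replicate 1. Over all genes, 0.782% had a wider range of group means than KLF4, and 0.755% a wider range than EGR1. Both calls of each gene held in each of 20 alternatives, with differences of Delta-HER2 from control from −2.05 to −1.94 for KLF4 and from 1.42 to 1.53 for EGR1.

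KLF9 (probe 8161648) had the next largest decrease among the members. Its values were 6.58, 5.93 and 6.03 in control cells, 6.36, 6.41 and 6.52 with WT-HER2, and 5.60, 5.81 and 5.49 with Delta-HER2. The Delta-HER2 arrays were the lowest, and control replicate 1 lay above all WT-HER2 arrays while the other control arrays lay below them. KLF9 fell by 0.55 log2 with Delta-HER2 against control (SE 0.16, adjusted p = 0.0320). Without control replicate 1, the highest array, the difference was −0.35 (adjusted p = 0.0447). The call was lost without WT-HER2 replicate 2 (adjusted p = 0.0503), Delta-HER2 replicate 1 (0.0962) or Delta-HER2 replicate 3 (0.117), and when the third group was left out of the fit (0.0702). Between the lines KLF9 fell by 0.80 with Delta-HER2 against WT-HER2 (adjusted p = 0.00544), and this call held in each alternative. With WT-HER2 the difference from control was 0.25 (95% interval −0.11 to 0.61), and single arrays moved it. It was 0.45 (adjusted p = 0.0916) without control replicate 1, 0.12 without replicate 2 and 0.17 without replicate 3.

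KLF5 (probe 7969414), a factor of proliferating basal epithelial cells, differed less. Its values were 7.87, 7.82 and 7.82 in control cells, 7.93, 7.92 and 8.02 with WT-HER2, and 7.69, 7.58 and 7.39 with Delta-HER2. The 3 groups did not overlap, in the order WT-HER2, control, Delta-HER2 from the top. KLF5 fell by 0.29 log2 with Delta-HER2 against control (SE 0.08, adjusted p = 0.0327) and by 0.40 against WT-HER2 (adjusted p = 0.00658). The call against control was lost without control replicate 1 (0.0798), 2 (0.0789) or 3 (0.0778), without Delta-HER2 replicate 2 (0.0635) or 3 (0.106), and when the third group was left out of the fit (adjusted p = 0.0546). It was also lost without the pair of arrays that stood apart (0.0625). With WT-HER2 the difference was 0.12 (95% interval −0.07 to 0.31, adjusted p = 0.675).

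KLF6 (probe 7931810), a widely expressed member that tissue injury induces, had values of 6.84, 6.57 and 6.63 in control cells, 6.75, 6.92 and 6.88 with WT-HER2, and 6.51, 6.43 and 6.43 with Delta-HER2. The Delta-HER2 arrays were the lowest, and the other groups overlapped. KLF6 fell by 0.39 log2 with Delta-HER2 against WT-HER2 (SE 0.09, adjusted p = 0.00934). Against control the difference was −0.22 (95% interval −0.42 to −0.03), which did not pass (adjusted p = 0.0999). Without control replicate 1, one of the arrays that stood apart, it was −0.14 (adjusted p = 0.268).

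KLF7 (probe 8058477), best known from neurons, had values of 7.45, 7.31 and 7.44 in control cells, 7.20, 7.50 and 7.09 with WT-HER2, and 7.56, 7.51 and 7.54 with Delta-HER2. All Delta-HER2 values lay above those of the other groups, by a narrow margin. The differences of Delta-HER2 were 0.14 against control (95% interval −0.10 to 0.37) and 0.28 against WT-HER2 (0.04 to 0.51, adjusted p = 0.0960). The latter passed without WT-HER2 replicate 2, the highest WT-HER2 array (0.40, adjusted p = 0.00939), and was 0.19 without the pair of arrays that stood apart.

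KLF10 (probe 8152215) had values of 7.40, 7.51 and 7.43 in control cells, 7.22, 7.35 and 7.13 with WT-HER2, and 7.50, 7.38 and 7.46 with Delta-HER2. As for EGR3, the WT-HER2 arrays were the lowest and the other groups overlapped. The difference of WT-HER2 from control was −0.22 (95% interval −0.39 to −0.04, adjusted p = 0.319) and that between the lines was 0.22 (0.04 to 0.39, adjusted p = 0.0804). The latter passed without WT-HER2 replicate 2 (0.27, adjusted p = 0.0465). For Delta-HER2 against control the interval ran from −0.17 to 0.18.

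KLF2 (probe 8026564), a factor that maintains quiescence in endothelial cells and lymphocytes, had values of 5.97, 5.76 and 5.80 in control cells, 6.03, 5.92 and 6.37 with WT-HER2, and 5.94, 5.92 and 5.80 with Delta-HER2. The 3 groups overlapped, and WT-HER2 replicate 3, one of the arrays that stood apart, was the highest. The difference of WT-HER2 from control was 0.26 (95% interval −0.004 to 0.52, adjusted p = 0.454), and it was 0.13 without WT-HER2 replicate 3 and 0.19 without both arrays that stood apart. The difference of Delta-HER2 was 0.04 (−0.22 to 0.30), and 0.10 without control replicate 1.

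With Delta-HER2 against control 4 of 9 members were called, 1 higher and 3 lower, where 25.4% of all genes were called (13.6% higher and 11.7% lower). Between the lines 6 of 9 were called, 2 higher and 4 lower, where 22.8% of all genes were (13.4% higher and 9.35% lower). Arrays did not overlap for 4 members with WT-HER2 against control, for 6 with Delta-HER2 against control and for 8 between the lines, against 14.0%, 37.0% and 34.7% of all genes. Over the 9 members the median difference of Delta-HER2 from control was −0.01, and over all genes it was −0.01. Between the lines the median was −0.22 over the members and −0.04 over all genes.

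**Figure D2:**
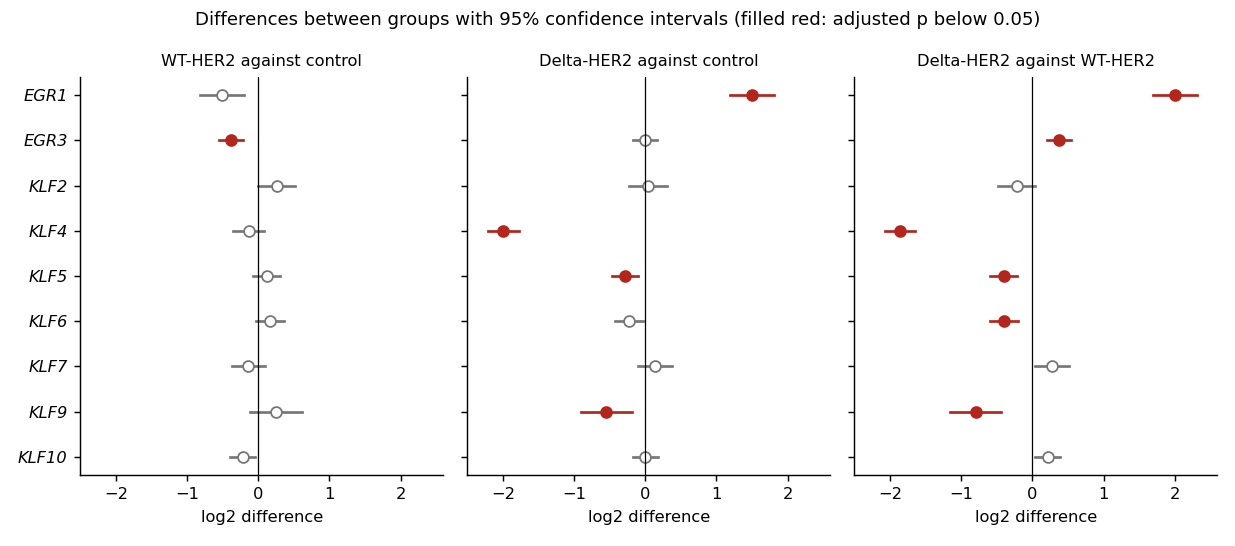
Log2 difference of each member in the 3 comparisons, with its 95% confidence interval from the fit over all 9 arrays; filled red points passed at an adjusted p below 0.05. EGR1 (2.01) and KLF4 (−1.86) stand out between the lines, and EGR3 is the 1 filled point for WT-HER2 against control. The first and second panels share the control arrays.

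The patterns most like those of EGR1 and KLF4 over the 9 arrays, by the root mean square difference after each gene was centred, came from genes of several kinds. For EGR1 they were PCNA, which encodes the sliding clamp of DNA polymerases (0.13 log2), and TFRC, the transferrin receptor gene (0.15). PCNA rose by 1.46 with Delta-HER2 and TFRC by 1.59. For KLF4 they were SELENBP1, a selenium-binding protein gene (0.15, with a difference of −1.79 with Delta-HER2), and FLRT3, a gene of a membrane adhesion protein (0.16, with a difference of −1.86). For KLF9 they were NEU1, a lysosomal sialidase gene (0.13), and the growth factor gene MDK (0.14). For EGR3 they were CYP26B1, whose product degrades retinoic acid, and NECTIN1, an adhesion gene (both 0.07). The members with smaller ranges had closer neighbours, namely PIM1 and SPSB3 for KLF5, DVL2 and PELI3 for KLF6, S100A11 and TMEM9B for KLF7, ASXL2 and YTHDF1 for KLF10, and PGLYRP1 and PPP1R1B for KLF2 (0.04 to 0.07).

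Other genes of the same families were read from the same fit. With Delta-HER2 against control 1 of 20 such EGR, WT1, KLF and SP genes rose and 3 fell (13.6% and 11.7% of all genes did), with a median of −0.07. Some were near or under the background bound of 3.18 in control, such as KLF17 (3.01), SP8 (3.15) and WT1 (3.27). A fall of these could hardly be seen. KLF8, a member linked to growth and invasion, fell in steps, from 6.73 ± 0.09 (SD, n = 3) in control to 6.13 ± 0.03 with WT-HER2 and 5.17 ± 0.17 with Delta-HER2. It was called in both comparisons with control (−0.60, limma adjusted p = 0.0150, and −1.56, adjusted p = 3.17e-06). SP1, the widely expressed GC-box factor, fell by 0.84 with Delta-HER2 (SE 0.07, adjusted p = 1.96e-05), and KLF3, a repressor of the family, fell by 0.58 (SE 0.10, adjusted p = 0.00142). KLF16 rose by 0.36 (SE 0.09, adjusted p = 0.0135). EGR4 did not pass (0.11, adjusted p = 0.812).

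The rise of EGR1 with Delta-HER2 stood beside that of other immediate-early genes, of which 10 of 18 rose and 0 fell against control (median 0.41, against −0.01 over all genes, of which 13.6% rose and 11.7% fell). IER3, a survival gene, rose by 2.21 (SE 0.09), FOS, which encodes an AP-1 subunit, by 1.83 (SE 0.14), TRIB1 by 1.27 (SE 0.12) and MYC by 1.04 (SE 0.08). Among those not called, FOSB (0.02), ATF3 (−0.05), NR4A1 (0.04) and ZFP36 (−0.03) were near 0. In control cells ATF3 (3.32) was close to the background bound of 3.18, and FOSB (3.81) and NR4A1 (3.85) were low, whereas ZFP36 was at 5.65. With WT-HER2 against control, IER3 (0.62) and DUSP1, a MAP kinase phosphatase gene (0.84), were called, both higher, whereas the EGR1 difference was negative. DUSP1 was 0.85 higher with Delta-HER2 too. JUN, another AP-1 subunit gene, was at −0.49 with WT-HER2 (adjusted p = 0.194) and rose by 0.48 with Delta-HER2 (adjusted p = 0.0383).

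**Figure D3:**
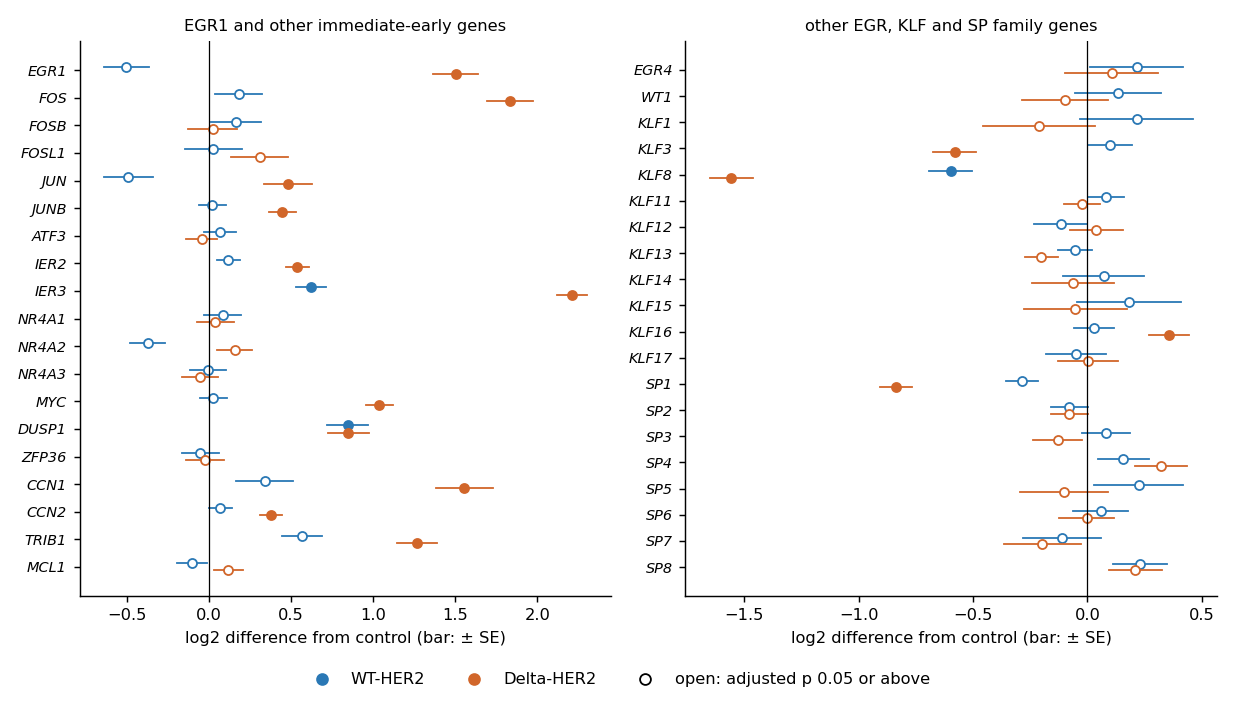
Log2 difference from control, with its SE, of EGR1 and 18 other immediate-early genes (left) and of 20 other EGR, WT1, KLF and SP genes (right), for WT-HER2 (blue) and Delta-HER2 (orange), which share the control arrays; open points did not pass. EGR1 (−0.51 and 1.50) has the widest gap between both colours in the left panel, and KLF8, SP1 and KLF3 are the called decreases at the right.

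Among 14 genes upstream of the members or acting with them, 1 rose and 2 fell with Delta-HER2, where 13.6% of all genes rose and 11.7% fell, and the median was −0.08. ELK1, the ERK-regulated partner of SRF, rose by 0.40 (adjusted p = 0.0251), while SRF itself did not pass (0.29, adjusted p = 0.0909). MRTFB, an actin-regulated SRF cofactor gene, fell by 0.27 (adjusted p = 0.0345). MAP2K5, the kinase gene upstream of ERK5 in a pathway that induces KLF2 and KLF4 through MEF2 factors, fell by 0.76 (SE 0.15, adjusted p = 0.00461). MAPK7, which encodes ERK5 (0.02), MEF2A (−0.10) and MEF2D (−0.06) did not pass. NAB1 and NAB2, corepressors of EGR proteins, did not pass either (−0.21 and −0.14), although NAB2 is known as an EGR target. The count of this list was 1, a decrease, without control replicate 2 or 3 or Delta-HER2 replicate 1 or 2, and 7, with 3 higher, without the pair of arrays that stood apart.

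Genes reported elsewhere as targets of the members moved in both directions with Delta-HER2, where 13.6% of all genes rose and 11.7% fell. The lists were not split by whether a gene is reported as activated or repressed. Opposite changes can therefore cancel in a list's median, and its counts and median do not measure the activity of a member. Of 12 reported EGR1 targets 5 rose and 2 fell (median 0.17). F3, the tissue factor gene, rose by 2.20 (SE 0.15), ICAM1, an adhesion receptor gene, by 0.65 (SE 0.06) and FN1, the fibronectin gene, by 0.67 (SE 0.07), while MMP14, a membrane metalloproteinase gene, fell by 0.74 (SE 0.08). Of 13 reported KLF4 targets 4 rose and 3 fell (median −0.06). Among those that rose were CCND1, a cell cycle gene, at 1.85 (SE 0.07) and ODC1, of polyamine synthesis, at 2.38 (SE 0.12). Among those that fell were CDH1, the E-cadherin gene (−1.03, SE 0.07), and CDKN1A, a cyclin-dependent kinase inhibitor gene (−0.58, SE 0.07). Whether KLF4 had a part in these changes was not tested. IVL (−0.06), KRT4 (−0.13) and KRT19 (−0.06) did not pass, but their levels were low. Against the background bound of 3.18, IVL was at 3.07 in control and 3.01 with Delta-HER2, so a fall could not be seen. KRT4 was at 3.68 and 3.55, and KRT19 at 3.72 and 3.66. CDH1 is also an epithelial marker. Of the 7 such markers measured it was the 1 that fell, and KRT18, a keratin gene, rose by 0.53. Of 10 reported KLF5 targets 7 rose and 0 fell (median 1.17), and FGFBP1, a carrier of fibroblast growth factors, rose by 3.31 (SE 0.08). KLF5 itself was lower, and whether it had a part in these changes was not tested. CCND1 and BIRC5 stand in both the KLF4 and the KLF5 list, PTGES and PDGFA in both the EGR1 and the KLF5 list. With WT-HER2 against control the target genes called were ICAM1 (0.40, limma adjusted p = 0.0141), PTGES (0.40, 0.0363), CDH1 (−0.33, 0.0498) and FGFBP1 (−0.50, 0.0208). Of all genes 1.68% were called there. The count of called KLF4 targets was 0 when any 1 array other than control replicate 1 was left out. That of EGR1 targets was 0 when replicate 2 or 3 of the control, or replicate 1 or 2 of WT-HER2, was left out. That of KLF5 targets was 0 when replicate 1 or 3 of the control, or replicate 1 of WT-HER2, was left out.

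KLF9 and KLF10 were set beside genes that share their known inducers. Of 9 glucocorticoid-induced genes 3 rose and 4 fell with Delta-HER2 (median 0.01), where 13.6% of all genes rose and 11.7% fell. TSC22D3, a glucocorticoid-induced leucine zipper gene, fell by 2.13 (SE 0.10, adjusted p = 7.50e-07), ZBTB16, a transcription factor gene, by 1.85 (SE 0.14), and PER1, a clock gene, by 0.42. DUSP1 (0.85), MT2A, a metallothionein gene (0.45), and SGK1, a kinase gene (0.29), rose. With WT-HER2, DUSP1 and NFKBIA, which encodes an NF-kappa-B inhibitor (0.44), rose. Of 12 TGF-beta early genes 5 rose and 1 fell (median 0.17), while KLF10 did not pass. ID1 rose by 1.27 (SE 0.08), BHLHE40 by 0.97 and PMEPA1 by 0.91, and TGFBI, a matrix protein gene, fell by 0.86 (SE 0.06). SMAD7 (0.27), SKIL (0.06) and TGIF1 (−0.06) did not pass. JUNB and CCN2, which rose, stand in both the TGF-beta and the immediate-early list, and DUSP1 in both the glucocorticoid and the immediate-early list. The counts of these lists are therefore not separate.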

How the data were processed

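Arrays of 9 RNA samples were used. The deposited log2 values were made by the authors with RMA (affy package, R 2.14), per the submitters' processing notes; RMA corrects background, normalizes by quantiles and summarises the probes of a transcript cluster. The genome build is not given in the sources used here. Values were used as deposited, with no filter. Of 32321 transcript clusters 19158 had 1 gene symbol in the array annotation, 1388 had several and 11775 were not listed and so unnamed here; symbols were updated through Entrez numbers for 19128. Where a gene had several probes the one with the highest mean stood for it, which gave 18404 genes, and each member had 1 probe.

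All 9 arrays were fitted with limma 3.58.1 in R 4.3.3, with 1 coefficient per group (residual degrees of freedom 6, prior 3.25), two-sided tests and Benjamini-Hochberg adjustment over all genes. The number of arrays limits the precision. The procedure was tested on simulated data. The replicate numbers did not pair the arrays: 3 of 9 same-numbered pairs had correlated deviations over 0.1, so no block was used. Promoter windows came from RefSeq (GRCh38.p14) and were searched on both strands.

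The members and gene lists were chosen with earlier results of these data known. The text names all members, the 2 genes nearest to each in pattern among genes above the background bound, and up to 4 genes of each list with the smallest p; other list genes were named after their values were seen, often because they did not pass. Of 130 genes in 12 lists 118 were measured. Alternatives were other normalizations, a low-value filter, the mean of a gene's probes, other variance estimates, array weights, the replicate block, pairwise fits, a stricter threshold and arrays left out.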

Additional observations from a re-analysis of the deposited data

Results flagged for a closer look

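For 4 members the differences of the HER2 lines from control had opposite signs, and the lines differed from each other by the limma test. The difference of Delta-HER2 minus that of WT-HER2 was 2.01 log2 for EGR1, −0.40 for KLF5, −0.39 for KLF6 and −0.80 for KLF9. EGR1 was above control with Delta-HER2 and below it with WT-HER2, and KLF5, KLF6 and KLF9 were the other way round. None of the 4 passed against control in both lines. Among all genes tested 2042 (11.1%) met the same description, and 24 genes of opposite sign passed against control in both lines.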

How the results depend on the processing

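The Delta-HER2 calls of EGR1 and KLF4 against control, and the calls of EGR1, EGR3, KLF4, KLF5, KLF6 and KLF9 between the lines, held in all 20 alternatives. With WT-HER2 against control 309 genes were called. The count was 736 with array weights, 139 with the replicate block, 134 with only the 2 groups in the fit, 115 at an adjusted p below 0.01, and 126 to 279 with 1 array left out. Between the lines 4191 genes were called, and 2772 at an adjusted p below 0.01. The causes were not tested.

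Among the members, the WT-HER2 count of 1 became 0 with median centring, trended variance, the replicate block, 2 groups, the stricter threshold or both apart arrays left out (0 to 1 with 1 array left out). The Delta-HER2 count of 4 became 2 with the replicate block, 2 groups or the stricter threshold (2 to 4 with 1 array left out). The replicate block ended the calls of EGR3 with WT-HER2 (adjusted p = 0.169), and of KLF5 (0.0718) and KLF9 (0.0633) with Delta-HER2 (limma). The numbers did not pair the arrays, and 1 of 9 correlated best with its own number. For members near 0 the sign of Delta-HER2 against control turned. EGR3 was at 0.0051 with quantile normalization (−0.029 to 0.025 with 1 array left out), and KLF2 at −0.017 (−0.0021 to 0.10). KLF10 was at −0.054 with quantile normalization, −0.0025 with median centring, −0.0086 with array weights and −0.023 without both apart arrays (−0.027 to 0.037 with 1 array left out).

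Of the upstream genes, 3 were called with Delta-HER2 against control, 7 with array weights or without both apart arrays, and 1 with the replicate block or the stricter threshold (1 to 4 with 1 array left out). Between the lines 2 became 4 with quantile normalization, array weights or without both apart arrays, and with WT-HER2 0 became 1 with array weights. The EGR1 target count between the lines, 7, was 4 at the stricter threshold (4 to 7 with 1 array left out).

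With WT-HER2 against control the other lists moved as follows. Family genes went from 1 to 2 with trended variance or array weights and to 0 with the replicate block or stricter threshold (0 to 1 with 1 array left out). Immediate-early genes went from 2 to 4 with array weights, to 1 with 2 groups or without both apart arrays, and to 0 at the stricter threshold (1 to 3). EGR1 targets went from 2 to 4 with quantile normalization or array weights, to 1 without both apart arrays, and to 0 with the replicate block, 2 groups or the stricter threshold (0 to 2). KLF4 targets went from 1 to 0 with median centring, the low-value filter, the mean of probes, robust variance, the replicate block, 2 groups or the stricter threshold (0 to 1). KLF5 targets went from 2 to 4 with array weights and to 0 with the replicate block, 2 groups, the stricter threshold or without both apart arrays (0 to 2). Glucocorticoid-induced genes went from 2 to 1 with median centring or the replicate block, and to 0 with 2 groups or the stricter threshold (1 to 2). TGF-beta genes went from 0 to 1 with quantile normalization or trended variance and to 2 with array weights.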
